A study of Homo sapiens with 4 samples.

Results

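The genes described here are 10 members of the YAP and TAZ programme in Daoy cells, out of 59384 gene names in the deposited count table: CCN1, CCN2, ANKRD1, AJUBA, PTPN14, AMOTL2, LATS2, AXL, YAP1 and WWTR1. They were picked by name, and the list was drawn up with earlier results of the same comparison in view, so their values are given as a description. Daoy is an established human medulloblastoma line. Cells of one group received lentivirus for knockdown of FABP4, a fatty acid binding protein (shFABP4, genotype label FABP4 knockdown), and control cells received PLKO virus (PLKO, genotype label WT). Both groups are the same line and both were infected. The labels name the knockdown construct only as shFABP4. Each group held 2 libraries of bead-captured mRNA fragmented with Tn5, and nothing states that they came from separate cultures, so the spread between them may be technical.

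YAP1 and TAZ (the product of WWTR1) are transcriptional coactivators that the Hippo kinase cascade holds in the cytoplasm. When the LATS kinases are inactive they enter the nucleus and bind TEAD factors, which recognise the motif GGAATG and drive genes of growth, adhesion and matrix signalling. Several targets, among them LATS2, AMOTL2, AJUBA and PTPN14, encode proteins that act back on the pathway.

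The shFABP4 libraries held 2539862 and 20431660 counted fragments, and the PLKO libraries 8988961 and 13839885. shFABP4 1, the shallowest library, had a fragment in 51762 gene names, against 22350 in shFABP4 2 and 23372 and 25560 in the PLKO libraries. A background rate, taken from coding genes without a count in the remaining libraries, accounted for 54.2% of its fragments. FABP4, the targeted gene, held 14 fragments in shFABP4 1 (5.19 expected from background, or 11.8 by gene length alone), 0 in shFABP4 2, and 1 and 6 in the PLKO libraries. It was too low in PLKO to check the labels, and shFABP4 1 did not show a lower count. A count of 0 in shFABP4 2 allows up to 0.147 fragments per 1000000 counted (CPM). Of 12 neural progenitor, glial and neuronal markers, VIM was abundant at 1114 and 6412 CPM in shFABP4 and 1536 and 1552 CPM in PLKO. CDH2 (23.6 and 21.2 CPM) and SOX9 (4.67 and 4.77 CPM) were detected in PLKO. ATOH1 and OTX2 held 0 fragments outside shFABP4 1. In shFABP4 2 and the PLKO libraries SOX2 held 0, 0 and 2, NEUROD1 0, 0 and 1, and TUBB3 19, 14 and 21. These values do not by themselves show a neural identity. The 10 markers of blood, endothelium, epithelium, liver and muscle summed to 341 CPM in shFABP4 1, 2.74 CPM in shFABP4 2, and 1.78 and 2.38 CPM in the PLKO libraries. Their part in the results below was not tested. In bulk RNA, fewer expressing cells and less RNA per cell cannot be told apart.

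The promoters are shown for CCN2 and ANKRD1, widely used reporters of YAP and TAZ activity, because they differ in direction in shFABP4 2, and for AMOTL2, a target at the high end of the range there. Each line gives the 250 bases before a RefSeq start (GRCh38.p14), with every GGAATG, or its reverse complement CATTCC, in capitals.
CCN2, chr6:131951373-131951622, minus strand: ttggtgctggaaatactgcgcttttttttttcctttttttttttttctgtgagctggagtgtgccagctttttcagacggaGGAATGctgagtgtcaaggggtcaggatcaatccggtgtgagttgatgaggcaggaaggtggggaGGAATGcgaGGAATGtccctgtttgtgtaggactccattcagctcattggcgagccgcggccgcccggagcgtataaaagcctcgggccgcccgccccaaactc
ANKRD1, chr10:90921088-90921337, minus strand: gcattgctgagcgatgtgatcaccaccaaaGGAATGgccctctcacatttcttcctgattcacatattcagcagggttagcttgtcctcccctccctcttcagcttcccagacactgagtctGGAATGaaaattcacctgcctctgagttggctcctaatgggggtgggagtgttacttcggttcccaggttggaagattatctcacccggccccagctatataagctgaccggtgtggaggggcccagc
AMOTL2 (second RefSeq start), chr3:134374448-134374697, minus strand: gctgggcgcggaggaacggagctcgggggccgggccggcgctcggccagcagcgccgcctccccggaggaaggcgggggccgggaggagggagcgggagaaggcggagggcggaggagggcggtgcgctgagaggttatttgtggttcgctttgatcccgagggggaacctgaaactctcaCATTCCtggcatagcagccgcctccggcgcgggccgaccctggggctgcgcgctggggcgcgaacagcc
CCN2 held 3 matches, whose first bases lie 169, 104 and 95 bases before the start, and ANKRD1 held 2, at 220 and 128 bases before it. Of all 35116 windows of this length, 11.9% held a match, 0.94% at least 2 and 0.0826% at least 3. Of the members, 9 had a promoter in the table (CCN1 did not), with 13 windows, of which 7 held a match (53.8%), each in a different gene. AMOTL2 held 1, at 69 bases before the second of its starts, and 0 before the first. LATS2 and WWTR1 held none. A match is a description of letters and not a measured site.

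The coactivators themselves were higher in shFABP4 2 than in both PLKO libraries, WWTR1 more than YAP1. YAP1, the founding coactivator (chromosome 11, 102110447 to 102233424, GRCh38, plus strand, 11 merged exons), had 91 and 1021 fragments in the shFABP4 libraries and 247 and 379 in the PLKO libraries. Scaled to the library total this was 35.8 and 49.97 CPM in shFABP4, against 27.5 and 27.4 CPM in PLKO. WWTR1, its paralog (chromosome 3, 149517235 to 149736714, minus strand, 19 merged exons), had 73 and 1403 fragments in shFABP4 and 223 and 344 in PLKO, or 28.7 and 68.7 CPM against 24.8 and 24.9 CPM. On this scale both shFABP4 libraries lay above both PLKO libraries for either gene. With total count scaling, however, the log2 fold change was positive for 11785 of 14735 tested genes. In shFABP4 1, 32.0 YAP1 and 42.3 WWTR1 fragments were expected from background. With the TMM scaling of the fit below, neither gene was above PLKO in both libraries. Over the pooled PLKO libraries the fold in shFABP4 2 was 1.82 for YAP1 (exact 95% interval 1.65 to 2.02) and 2.76 for WWTR1 (2.51 to 3.05), where the intervals cover counting error only.

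The balance between the 2 coactivators needs no scaling between libraries. WWTR1 took 44.5% of their joint fragments in shFABP4 1 (exact 95% interval 36.8% to 52.5%) and 57.9% in shFABP4 2 (55.9% to 59.9%), against 47.4% (42.9% to 52.1%) and 47.6% (43.9% to 51.3%) in the PLKO libraries. The WWTR1 share was thus higher in shFABP4 2 than in PLKO, while the raw share of shFABP4 1, background included, lay within the intervals of the PLKO libraries. Per kb of exon, WWTR1 stood at 0.606 times YAP1 in shFABP4 1 as counted and at 0.393 times with background subtracted, at 1.04 times in shFABP4 2, and at 0.682 and 0.686 times in PLKO. By that subtraction the shFABP4 libraries lay on either side of PLKO. By gene length alone, 71.8 of 73 WWTR1 and 54.3 of 91 YAP1 fragments in shFABP4 1 would be background. The subtracted balance of shFABP4 1 thus depends on the rate used, and its change from PLKO cannot be stated. Counting ignored strand, and 9.05% of WWTR1's exon length overlaps WWTR1-AS1 and 10.13% of YAP1's overlaps 2 other gene names.

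**Figure D1:**
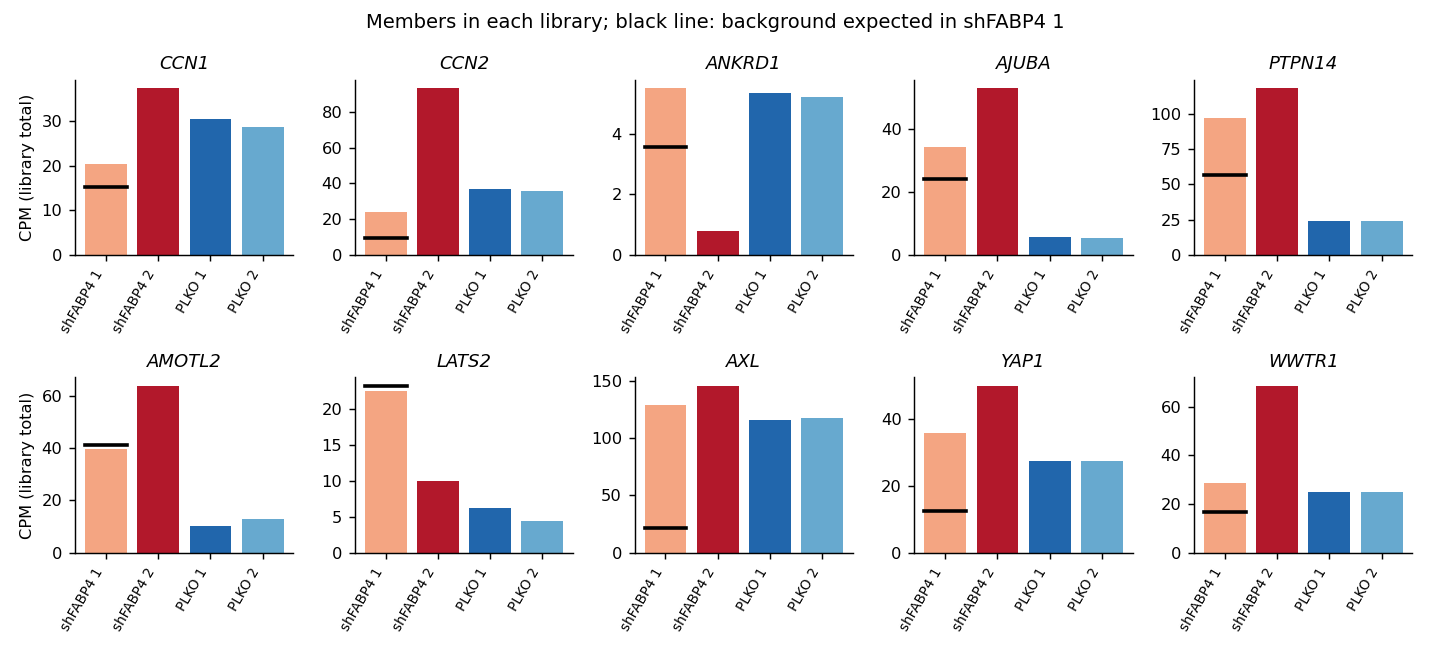
CPM by library total (linear axis from 0) for each member in shFABP4 1, shFABP4 2, PLKO 1 and PLKO 2. The black line marks the background expected in shFABP4 1. AJUBA, PTPN14 and AMOTL2 stand well above PLKO in shFABP4 2, and ANKRD1 is at 0.783 CPM there, against 5.34 and 5.20 CPM in PLKO.

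Of the secreted targets, CCN2 rose more than CCN1 in shFABP4 2. CCN2, or CTGF, a matricellular protein of fibrosis and adhesion (chromosome 6, 131948176 to 131951372, minus strand), had 61 and 1908 fragments in shFABP4, against 333 and 492 in PLKO. That was 24.0 and 93.4 CPM in shFABP4 and 37.0 and 35.5 CPM in PLKO, so shFABP4 1 was below both PLKO libraries and shFABP4 2 above them. CCN1, or CYR61, its relative in the same family (chromosome 1, 85580761 to 85584589, plus strand), had 52 and 766 fragments in shFABP4 and 275 and 398 in PLKO, or 20.5 and 37.5 CPM against 30.6 and 28.8 CPM. It showed the same split. In shFABP4 2 the fold over pooled PLKO was 2.58 for CCN2 (2.38 to 2.81) and 1.27 for CCN1 (1.15 to 1.41). Within a library CCN2 took 54.0% of the pair's fragments in shFABP4 1 and 71.4% in shFABP4 2 (69.6% to 73.1%), against 54.8% and 55.3% in PLKO. Per kb, CCN2 stood at 1.86 times CCN1 in shFABP4 1 as counted and at 4.37 times with background subtracted, at 3.94 times in shFABP4 2, and at 1.92 and 1.96 times in PLKO. The raw share of shFABP4 1, background included, is thus near PLKO. The subtracted ratio there rests on a small CCN1 excess, 52 fragments against 38.78 expected from background. The counting interval of those 52 fragments ran from 38.84 to 68.19. By gene length alone, 31.8 CCN1 and 20.1 CCN2 fragments would be background. The subtracted ratio of shFABP4 1 thus depends on the rate used, and its change from PLKO cannot be stated.

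ANKRD1, a nuclear ankyrin repeat protein and a standard YAP target (chromosome 10, 90912096 to 90921087, minus strand, 9 merged exons), was the single member lower in shFABP4 2. It had 14 and 16 fragments in shFABP4, against 48 and 72 in PLKO. As CPM it was at 5.51 and 0.783 in shFABP4 and at 5.34 and 5.20 in PLKO. The PLKO value was 6.71 times that of shFABP4 2 (3.97 to 12.1), while shFABP4 1 lay just above both PLKO libraries with 9.07 of its 14 fragments expected from background. Set against CCN2 in the same library, ANKRD1 made up 18.7% of the pair in shFABP4 1 (10.6% to 29.3%) and 0.832% in shFABP4 2 (0.476% to 1.35%), against 12.6% and 12.8% in PLKO. Per kb, the value for shFABP4 1 was 0.300 as counted and 0.176 with background subtracted, against 0.188 and 0.191 in PLKO. The ANKRD1 count there was not above background, so the subtracted value does not place shFABP4 1. This shift of ANKRD1 relative to CCN2 in shFABP4 2 does not depend on how the libraries are scaled, because both counts come from the same library.

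Of the targets that feed back on the Hippo pathway, AJUBA, AMOTL2 and PTPN14 had the highest ratios of the 10 members in shFABP4 2. AJUBA, a LIM protein that restrains the LATS kinases (chromosome 14, 22971177 to 22982551, minus strand, 11 merged exons), had 87 and 1086 fragments in shFABP4 and 52 and 76 in PLKO. That was 34.3 and 53.2 CPM in shFABP4, against 5.78 and 5.49 CPM in PLKO. In shFABP4 1, 61.7 of the 87 fragments were expected from background. In shFABP4 2 AJUBA stood 9.48-fold over pooled PLKO (7.89 to 11.5), above 99.7% of the 11634 genes with a mean of at least 20 PLKO fragments. AMOTL2, an angiomotin that binds YAP (chromosome 3, 134355347 to 134375479, minus strand), had 101 and 1305 fragments in shFABP4 and 93 and 176 in PLKO, or 39.8 and 63.9 CPM against 10.3 and 12.7 CPM. PTPN14, a phosphatase family protein that binds YAP and holds it outside the nucleus (chromosome 1, 214348700 to 214552449, minus strand), had 246 and 2420 fragments in shFABP4 and 216 and 329 in PLKO, or 96.9 and 118 CPM against 24.0 and 23.8 CPM. The folds in shFABP4 2 were 5.42 for AMOTL2 (4.75 to 6.20) and 4.96 for PTPN14 (4.52 to 5.45). LATS2, a kinase that phosphorylates YAP and TAZ (chromosome 13, 20973036 to 21061586, minus strand), had 57 and 204 fragments in shFABP4 and 55 and 61 in PLKO, or 22.4 and 9.98 CPM against 6.12 and 4.41 CPM. It is the only one of these 4 with its higher shFABP4 value in library 1, where 58.9 fragments were expected from background.

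AXL, a receptor tyrosine kinase of invasion and drug resistance (chromosome 19, 41219223 to 41261766, plus strand, 22 merged exons), held the most fragments of the 10 in every library and, with CCN1, had the ratio nearest to 1 in shFABP4 2. It had 327 and 2979 fragments in shFABP4 and 1038 and 1625 in PLKO, or 129 and 146 CPM against 115 and 117 CPM. The fold in shFABP4 2 was 1.25 (1.19 to 1.32), above 54.6% of the 11634 genes. Its relative TYRO3 was at 78.4 and 18.2 CPM in shFABP4 and at 36.9 and 35.1 CPM in PLKO, with 113 of its 199 fragments in shFABP4 1 expected from background.

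Per exon length, the members ranked differently by library. In TPM, fragments per kb of exon scaled to a sum of 1000000, shFABP4 2 had CCN2 first at 114 TPM, then AXL at 81.2, CCN1 at 28.98, AMOTL2 at 28.2, AJUBA at 25.8, WWTR1 at 23.5, YAP1 at 22.6, PTPN14 at 18.1, LATS2 at 5.09 and ANKRD1 at 1.25. The PLKO libraries had AXL first at 56.6 and 57.5 TPM, then CCN2 at 39.9 and 38.2, CCN1 at 20.8 and 19.6, and YAP1 at 11.0 and 10.9. WWTR1 (7.48 in both) and ANKRD1 (7.51 and 7.31) could not be ordered there, nor could LATS2 (2.75 and 1.97) and AJUBA (2.48 and 2.35). AMOTL2 (4.02 and 4.94) and PTPN14 (3.23 and 3.19) lay between those pairs. AJUBA thus stood among the lowest of the 10 in PLKO, and above both coactivators in shFABP4 2.

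How much of each count in shFABP4 1 is background was examined gene by gene. AXL held 327 fragments against 53.8 expected, 6.07 times. YAP1 held 91 against 32.0, CCN2 61 against 24.5, WWTR1 73 against 42.3, PTPN14 246 against 144, AJUBA 87 against 61.7 and CCN1 52 against 38.8. AMOTL2, with 101 against 105, and LATS2, with 57 against 58.9, were at the background level. With a rate by length alone, AMOTL2 had 55.7 expected and WWTR1 71.8. The counting interval of 6 members thus lay above background by both rates, of 2 (AMOTL2 and WWTR1) by one rate, and of 2 (ANKRD1 and LATS2) by neither. By either rate taken alone it did so for 7 of 10 members, and for 7 of the 10 markers of blood, endothelium, epithelium, liver and muscle. An interval above background is therefore no sign by itself that a gene was expressed. The spread between background genes was wider than counting error. Over 1086 background genes with at least 20 expected fragments, observed over expected ran from 0 to 2.91 between the 5th and 95th percentiles, and of the members AXL alone lay outside that range.

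**Figure D2:**
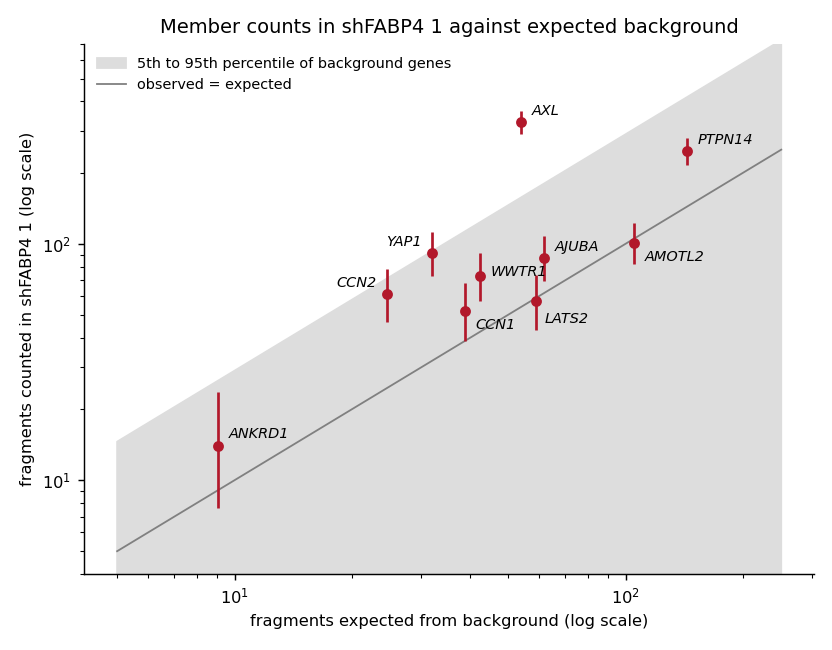
Fragments counted in shFABP4 1 (vertical, log scale, bars are exact 95% Poisson intervals) against fragments expected from background (horizontal, log scale) for the 10 members. The grey band spans the 5th to 95th percentile of background genes, and only AXL, at 6.07 times the expected count, stands above it.

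In the fit of all 14735 tested genes (edgeR quasi-likelihood, TMM scaling), 0 of 10 members passed an adjusted p of 0.05, as did 0% of all genes in either direction. An unadjusted p under 0.05 was reached by 2 members, AJUBA and PTPN14, and by 1818 genes in all. limma-voom also called 0 members, and DESeq2 called 0 members where it called 3.59% of all genes higher and 1.13% lower. The log2 fold change was 2.45 for AJUBA (SE 0.67, adjusted p = 0.391, edgeR), 1.67 for AMOTL2 (SE 0.67), 1.62 for PTPN14 (SE 0.59), 0.87 for LATS2 (SE 0.55), 0.54 for WWTR1 (SE 0.80) and 0.32 for CCN2 (SE 0.98). It was 0.12 for YAP1 (SE 0.60), -0.33 for AXL (SE 0.63), -0.51 for CCN1 (SE 0.70) and -1.72 for ANKRD1 (SE 0.92). The members' median was 0.43, beside 0.34 over all tested genes. On this scale both shFABP4 libraries lay above both PLKO libraries for 4 members (AJUBA, PTPN14, AMOTL2 and LATS2), against 28.5% of tested genes, and below for ANKRD1, against 26.1%.

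Which library is kept decides most of these signs. Without shFABP4 1, 7 members passed as higher and ANKRD1 as lower (edgeR), where 34.2% and 32.7% of 15301 genes did so, with shFABP4 2 assumed to vary as little as the PLKO pair. The members' median was then 0.92, beside 0.04 over all genes, and CCN1 (0.10) and AXL (0.079) did not pass. Without shFABP4 2, 0 members passed as higher and 7 as lower, where 56.6% and 29.3% of 27830 genes did so, and that fit rests on the library with the background. There the members' median was -1.95, beside 2.22 over all genes, with AJUBA at 0.36 and CCN2 at -2.84. AJUBA was the single member whose sign held under all 13 alternatives tried.

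Scaling by abundant genes gives another view of shFABP4 1. High-signal genes were the 1071 whose fragment number in that library, as predicted from their PLKO share, reached 5 times its background or more. No member was among them, and 249 of them passed (124 higher, 11.6%, and 125 lower, 11.7%, edgeR). The high-signal genes held 15.6% of the fragments in shFABP4 1, 59.1% in shFABP4 2 and 64.3% in each PLKO library. Scaling by them therefore raised the values of shFABP4 1 most. With libraries so scaled, 9 members lay above PLKO in both shFABP4 libraries, where 65.7% of tested genes did, and 0 below, where 4% did. The log2 fold change was positive for 13760 of 14735 tested genes (median 2.44, members 1.92). With background subtracted as well, by the rate that takes GC into account, 6 members lay above and 0 below, against 44.5% and 12.4% of tested genes. The rate by gene length alone was not applied here. By that rate 71.8 of 73 WWTR1 fragments and 55.7 of 101 AMOTL2 fragments in shFABP4 1 would be background. The subtracted values of these members there thus depend on the rate. PTPN14 was then at 153 and 150 in shFABP4, against 24.0 and 23.8 in PLKO. AJUBA was at 37.8 and 67.4, against 5.78 and 5.50. AXL was at 408 and 185, against 115 and 118, and YAP1 at 88.3 and 63.4, against 27.5 and 27.4. CCN2 was at 54.6 and 118, against 37.0 and 35.6, and WWTR1 at 45.9 and 87.1, against 24.8 and 24.9. AMOTL2 and LATS2 had 0 left in shFABP4 1, with 81.0 and 12.7 in shFABP4 2. Among the 2188 genes above 2 times the background AXL, the only member there, had a log2 difference of 1.19 with SE 0.41 (edgeR adjusted p = 0.149), and 0 of those genes passed.

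**Figure D3:**
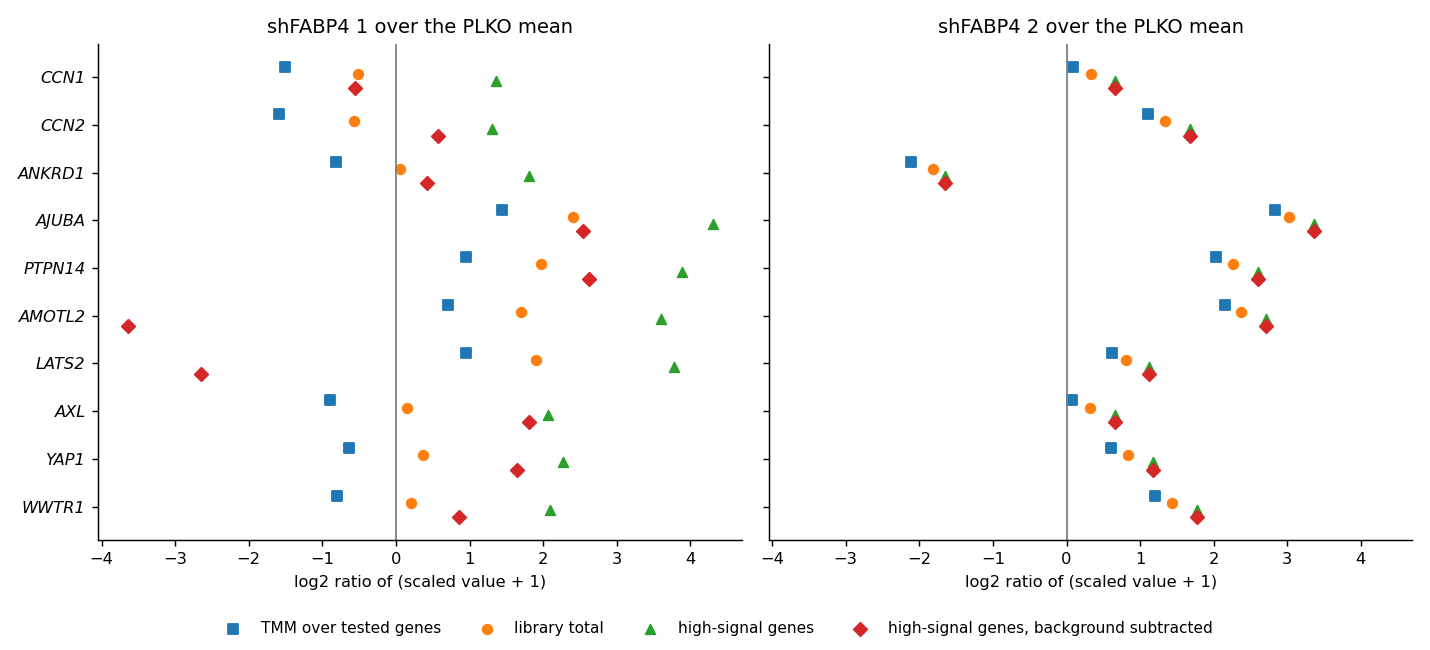
log2 ratio of scaled value plus 1, shFABP4 1 (left) and shFABP4 2 (right) over the PLKO mean, for each member under 4 scalings. In shFABP4 2 the sign of every member is the same under all 4, while in shFABP4 1 the ratio of AMOTL2 runs from -3.65 to 3.60.

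Set alone against PLKO, shFABP4 2 had 9 of 10 members above both PLKO libraries in CPM and ANKRD1 below, where 55.3% of the 11634 genes with a mean of at least 20 PLKO fragments lay above and 38.9% below. The members' median log2 ratio was 1.14, beside 0.21 over those genes and 1.37 over the 5 neural markers with as many fragments, and shFABP4 2 has no replicate without the background described above. The other genes of a published YAP and TAZ target signature gave a second view. Of its 15 genes, shFABP4 2 was above both controls for 12, below for 0 and between for 3, with a median log2 ratio of 1.01 over the 12 with enough fragments. In the fit of all 4 libraries 0 of the 14 tested passed (edgeR, 2 at an unadjusted p under 0.05), and DESeq2 also called 0. FOXF2, a forkhead factor, was at 18.5 and 19.4 CPM in shFABP4 and at 3.78 and 4.12 CPM in PLKO, with 45.3 of its 47 fragments in shFABP4 1 expected from background. RBMS3, an RNA-binding protein, held 71 and 51 fragments in shFABP4 and 7 and 13 in PLKO, with 69.9 expected from background in shFABP4 1. Of 3 more targets, named after their values were seen, CRIM1 was at 33.1 and 76.8 CPM in shFABP4 and at 26.5 and 26.2 CPM in PLKO. FJX1 was at 32.7 and 130 CPM in shFABP4 and at 51.2 and 51.9 CPM in PLKO, so shFABP4 1 was the lower there. NT5E was at 24.4 and 57.0 CPM in shFABP4 and at 26.8 and 24.1 CPM in PLKO, with shFABP4 1 between the PLKO libraries.

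Of the DNA-binding partners, TEAD4 and TEAD1 had another balance in shFABP4 2. TEAD4, 1 of the 4 TEAD factors, was at 22.4 and 19.0 CPM in shFABP4 and at 34.8 and 37.1 CPM in PLKO. TEAD1, named after its values were seen, was at 23.6 and 26.1 CPM in shFABP4, against 7.79 and 7.73 CPM in PLKO. TEAD4 made up 48.7% of the pair's fragments in shFABP4 1 (39.4% to 58.1%) and 42.1% in shFABP4 2 (38.9% to 45.4%), against 81.7% (77.5% to 85.5%) and 82.8% (79.6% to 85.7%) in PLKO. In shFABP4 1, 54.2 of 60 TEAD1 fragments and 42.0 of 57 TEAD4 fragments were expected from background. Per kb, TEAD4 stood at 3.43 times TEAD1 in shFABP4 2, and at 21.0 and 22.6 times in PLKO. In shFABP4 1 it stood at 4.47 times as counted and at 12.2 times with background subtracted. The TEAD1 count there was not above background by either rate (92.0 expected by gene length alone). The subtracted value therefore does not place shFABP4 1. VGLL3, a cofactor that binds TEAD factors, held 27 and 145 fragments in shFABP4 and 8 and 28 in PLKO, with 48.3 expected from background in shFABP4 1. Named after their values were seen, TEAD2 (5.87 CPM in shFABP4 2, 2.78 and 2.75 in PLKO) and TEAD3 (25.5, against 13.7 and 14.8) were also higher there. VGLL4 was lower (2.01, against 6.56 and 7.15). Of this list of 8, shFABP4 2 was above both controls for 4, below for 3 and between for 1. That is near the shares of the 11634 genes with a mean of at least 20 PLKO fragments, 55.3% above and 38.9% below. Of the 8, 5 had as many fragments, while VGLL1 and VGLL2 held at most 2 in any library other than shFABP4 1. In the fit 6 were tested and 0 passed (edgeR, 1 at an unadjusted p under 0.05, and 0 in DESeq2). TEAD4 was at -1.41 (SE 0.47, adjusted p = 0.391, edgeR), and at 0.59 when scaled by high-signal genes.

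**Figure D4:**
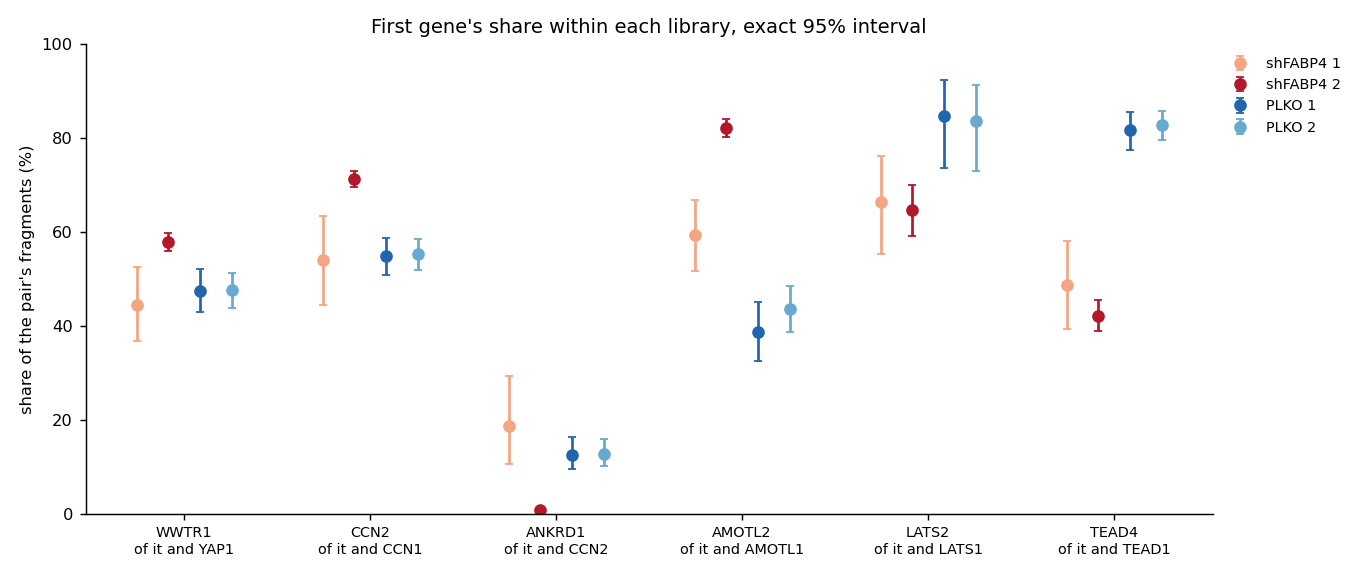
Share of a pair's fragments that fell on the first gene (percent, exact 95% binomial intervals for counting error) in each library. WWTR1, CCN2 and AMOTL2 take larger shares in shFABP4 2 than in either PLKO library, and ANKRD1, LATS2 and TEAD4 smaller ones. The shares of shFABP4 1 include its background.

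The kinases and upstream regulators showed no common direction. Of 12 Hippo kinases, scaffold and MOB proteins, shFABP4 2 was above both controls for 7 and below for 4. That is near the shares of the 11634 genes with a mean of at least 20 PLKO fragments, 55.3% above and 38.9% below. The median log2 ratio was 0.13 over the 10 with enough fragments, beside 0.21 over those genes. STK4 (MST1), which activates the LATS kinases, was at 33.5 and 36.3 CPM in shFABP4, against 8.45 and 7.30 CPM in PLKO, with 46.3 of its 85 fragments in shFABP4 1 expected from background (78.5 by length alone). LATS1 held 29 and 111 fragments in shFABP4 and 10 and 12 in PLKO, where 32.2 were expected from background in shFABP4 1. LATS2 took 64.8% of the LATS fragments in shFABP4 2, against 84.6% and 83.6% in PLKO. The 66.3% of shFABP4 1 rests on 57 and 29 fragments where background alone gives 58.9 and 32.2, so it says nothing of the LATS genes there. Of 14 upstream regulators and relatives, 7 lay above and 6 below in shFABP4 2, also near the shares over all genes. FAT4, a giant cadherin, held 46 and 55 fragments in shFABP4 and 9 and 13 in PLKO, and AMOT, the founding angiomotin, 32 and 51 against 7 and 13. In shFABP4 1 both were under the 108 and 65.3 fragments expected from background. Of the kinases 0 of 12 passed (edgeR, 3 at an unadjusted p under 0.05), and of the regulators 0 of 13 tested (0 at that p). DESeq2 called 0 in both lists.

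Among relatives of the members, 7 of 9 were tested and 0 passed (edgeR, 3 at an unadjusted p under 0.05). MERTK, a receptor of the AXL family, held 61 and 97 fragments in shFABP4 and 7 and 10 in PLKO. CCN5, a CCN protein that lacks the C-terminal domain of its relatives, held 141 and 132 against 16 and 13, and was the single gene of the 5 pathway lists called by DESeq2 (adjusted p = 0.0300). In shFABP4 1, 35.0 MERTK and 52.2 CCN5 fragments were expected from background. The genes with the smallest p among the marker lists were GFAP (231 and 165 fragments in shFABP4, 12 and 19 in PLKO), RBFOX3 (559 and 64, against 7 and 29), ACTA1 (30 and 23, against 3 and 6) and MYH7 (284 and 1, against 8 and 5), and none passed in edgeR (0 of 8 neural and 0 of 2 other markers tested, with 1 and 0 at an unadjusted p under 0.05), while DESeq2 called 2 and 1. In shFABP4 1 the background expected was 182 fragments for GFAP, 160 for RBFOX3, 38.6 for ACTA1 and 97.7 for MYH7.

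**Figure D5:**
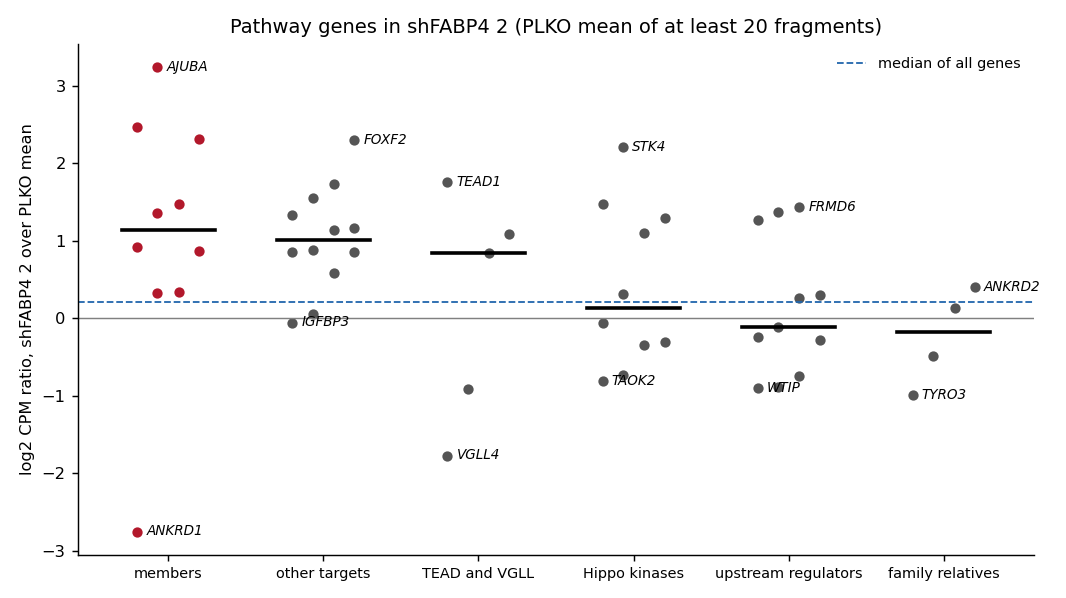
log2 ratio of CPM in shFABP4 2 over the PLKO mean for genes with a mean of at least 20 PLKO fragments, by list. Points are genes, black bars list medians and the dashed line the median of all such genes (0.21). The medians of the members (1.14), the other targets (1.01) and the TEAD and VGLL genes (0.84) lie above that line and those of the other 3 lists below it, and ANKRD1, at -2.75, is the lowest point.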

How the data were processed

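RNA of 2 shFABP4 and 2 PLKO libraries was sequenced. The authors counted read pairs over GENCODE 38 exons by gene name (raw counts, featureCounts 2.0.0, no strand option), per the file headers. The submitters' processing notes also name FastQC, HISAT, StringTie and GRCh38. ANK2 is not analysed here, since 7 lines at its place could not be read. The chi-square per degree of freedom was 282 between the shFABP4 libraries (32373 genes) and 2.06 between the PLKO libraries (15446 genes), so no pair looks like a single library deposited again, though all may be technical replicates.

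Members and lists were chosen with earlier results of these data known. The test was edgeR 4.0.16 under R 4.3.3 (filterByExpr, minimum count 10, total 15, TMM, robust quasi-likelihood F test, two-sided, Benjamini-Hochberg over all genes). DESeq2 1.42.0 and limma 3.58.1 (voom) were alternatives. On simulated counts the test over all 4 libraries missed most of the planted changes, so a count of 0 calls is no sign that genes did not differ. Of the lists, the 2 genes with the smallest p were named.

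Background in shFABP4 1 was a rate per kb for each of 6 GC classes, from 2739 coding genes with no fragment elsewhere. Gene types and GC came from GENCODE 29, to which 67.7% of names matched. CPM use library totals, and TPM the deposited exon lengths. Values scaled by high-signal genes were set to the PLKO CPM level, and log2 ratios of scaled values used a pseudocount of 1.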

Additional observations from a re-analysis of the deposited data

How the results depend on the processing

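Over all genes, 0 calls stood against 0 to 23895 with 1 library left out (10242 without shFABP4 1, 23895 without shFABP4 2), 28 with the replicate number as a block, 695 in DESeq2 and 69 with no low-count filter. For the 5 pathway lists these were 0 to 42, and 1 in DESeq2. The 249 calls among high-signal genes became 31 to 980 with 1 library left out, 380 in DESeq2, 156 at 10 times the background, and 0 at 2 times the background, with a rate by length only or with total count scaling. The difference between libraries 1 and 2 was not correlated between the groups (r = 0.01 over 14735 genes). The shFABP4 difference holds the background of shFABP4 1, and the PLKO pair differed little. The correlation therefore cannot decide whether the numbers pair the libraries. Under the block the log2 fold changes of CCN2 (-0.24) and YAP1 (-0.015) turned, as did CCN2 (-0.59), YAP1 (-0.15), WWTR1 (-0.032) and MYH7 (-0.72) in limma-voom, and YAP1 (-0.046) with no filter. CCN1 and AXL turned with total count (0.16 and 0.49) and high-signal scaling (1.07 and 1.53), as did ANKRD1 (0.97) and TEAD4 (0.59) with the second of these. With background also subtracted CCN1 (0.051), AXL (1.23), AMOTL2 (-0.46) and LATS2 (-0.75) turned. With 1 library left out the ranges were -2.78 to 0.10 for CCN1, -2.84 to 1.12 for CCN2, -0.23 to 2.06 for PTPN14, -0.48 to 2.20 for AMOTL2, -0.12 to 0.73 for LATS2, -2.10 to 0.079 for AXL, -1.86 to 0.62 for YAP1, -2.04 to 1.22 for WWTR1, -0.15 to 1.97 for STK4 and -0.030 to 2.04 for FOXF2. The cause was not tested. In all, 94 of the members' alternative values kept direction and, where a test was run, side of the threshold. Another 11 kept direction but not that side, and 25 turned. The values with background subtracted had no test, so only their direction was compared. Depth limits ANKRD1, which rests on 14 and 16 fragments in shFABP4.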
